A study of Arabidopsis thaliana with 16 samples.

Results

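Zone 4 of the Arabidopsis thaliana root was compared with zone 3 at pH 5.7, on 4 of the 16 arrays of a series that covered 4 longitudinal zones at 2 pH values. The arrays were chosen by title alone: the 2 replicates of zone 4 at pH 5.7 and the 2 replicates of zone 3 at pH 5.7. Both groups were roots of the ecotype Columbia at 6 days of age, and no mutation or transgene is named. Seedlings of both had spent 5 days on agar of pH 5.7 with MES, then 24 h on fresh agar of pH 5.7 with 3 mM DMG, and their roots were then cut into zones. The labels number the zones and call them developmental stages, without saying which tissue or distance from the tip a number covers. Nothing says that replicates came from separate cultures, so the p-values reflect only how these samples vary, possibly for technical reasons. RNA of each section was amplified in 2 cycles and hybridised to Affymetrix arrays, on which a gene is read by 1 or more probe sets. The values are the deposited linear intensities, whose mean after trimming the extremes was nearly the same on every array.

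Along a root, cells divide near the tip, elongate, and then mature. During maturation epidermal cells form root hairs, with expansins and xyloglucan enzymes loosening the wall and class III peroxidases cross-linking it. The endodermis first lays down a lignin ring, the Casparian strip, and later coats its cells with suberin, a polyester that GDSL-type esterases assemble and remodel. Older root also starts lateral root primordia from the pericycle under the control of auxin.

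Differences are zone 4 minus zone 3 in mean log2(intensity + 16), with the standard error (SE) of a limma model fitted to all 16 arrays. The added 16 understates the change of dim genes. A gene is said to have risen or fallen in zone 4 where its p-value, adjusted by the Benjamini-Hochberg method over 16405 probe sets, was under 0.05. In that test 1961 probe sets were called, 12.0% of those tested, with 1088 higher in zone 4 (6.63%) and 873 lower (5.32%). Most calls were large: 1895 differed at least 2-fold, and at least 8-fold differences were seen in 81 higher and 111 lower probe sets. Counted once per gene, 520 genes with a name of their own rose and 476 fell. With 2 arrays per zone, an exact permutation test of a single gene cannot go below p = 0.333. Both zone 4 arrays lay above both zone 3 arrays for 25.9% of all tested probe sets and below them for 23.9%, so an absence of overlap is common.

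Replicate 2 of zone 3 stood apart. The mean log2 level over 69 plastid-encoded genes was 7.21 and 8.45 in zone 4, against 7.76 in replicate 1 and 10.31 in replicate 2 of zone 3. Replicates correlated at r = 0.941 in zone 4 and 0.838 in zone 3 across probe sets, which are not independent. GAPDH probes at the 3' end, set against those at the 5' end as a measure of RNA quality, gave log2 ratios of 3.25 and 3.65 on the zone 4 arrays, against 5.08 and 5.59 on the zone 3 arrays. Ubiquitin probes also lay apart (2.26 and 2.55 in zone 4, against 3.07 and 3.34 in zone 3), while actin probes overlapped (4.99 and 5.17 in zone 4, against 6.18 and 4.98 in zone 3), and the part of these ratios in the results was not tested. Without zone 3 replicate 2, 643 probe sets were called higher and 635 lower, and all 30 genes ranked below, the 15 largest rises and the 15 largest falls, kept their call. Of 121 called genes that were open to naming, 32 were not called without replicate 2 of zone 3, 20 without its replicate 1, 55 without replicate 1 of zone 4 and 36 without its replicate 2. On 4 arrays of the series, all of them a replicate 2 and those of both zones among them, plastid genes averaged over 1 log2 unit more than on the partner replicate, and 49 of the 121 genes were not called without these high-plastid arrays.

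Few cell type markers could be set against the zone numbers, because the annotation used here names few of the classic ones. Tested were 4 of 8 root hair markers, 2 of 7 meristem markers, 3 of 4 markers of lateral root primordia and 2 of 5 shoot markers. Markers of the hairless epidermis, endodermis, suberized endodermis, xylem, phloem, pericycle and root cap were not analysed here. EXPA7, a root hair expansin, read 7.70 and 25.4 in zone 1, 24.1 and 57.0 in zone 2, 1394 and 3138 in zone 3 and 81.6 and 176 in zone 4 at pH 5.7. Its arrays were thus brightest in zone 3, and the other 3 root hair markers also had their highest mean there. AUR1, a mitotic kinase, had 371 and 409 in zone 4, against 135 and 448 in zone 3, so the arrays of the 2 zones overlapped. Its difference was 0.62, and that of BBM, the other meristem marker tested, was -1.16. Neither passed the test (limma, adjusted p = 0.425 and 0.229). In bulk sections, fewer cells of a type and less RNA per cell cannot be told apart.

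**Figure D1:**
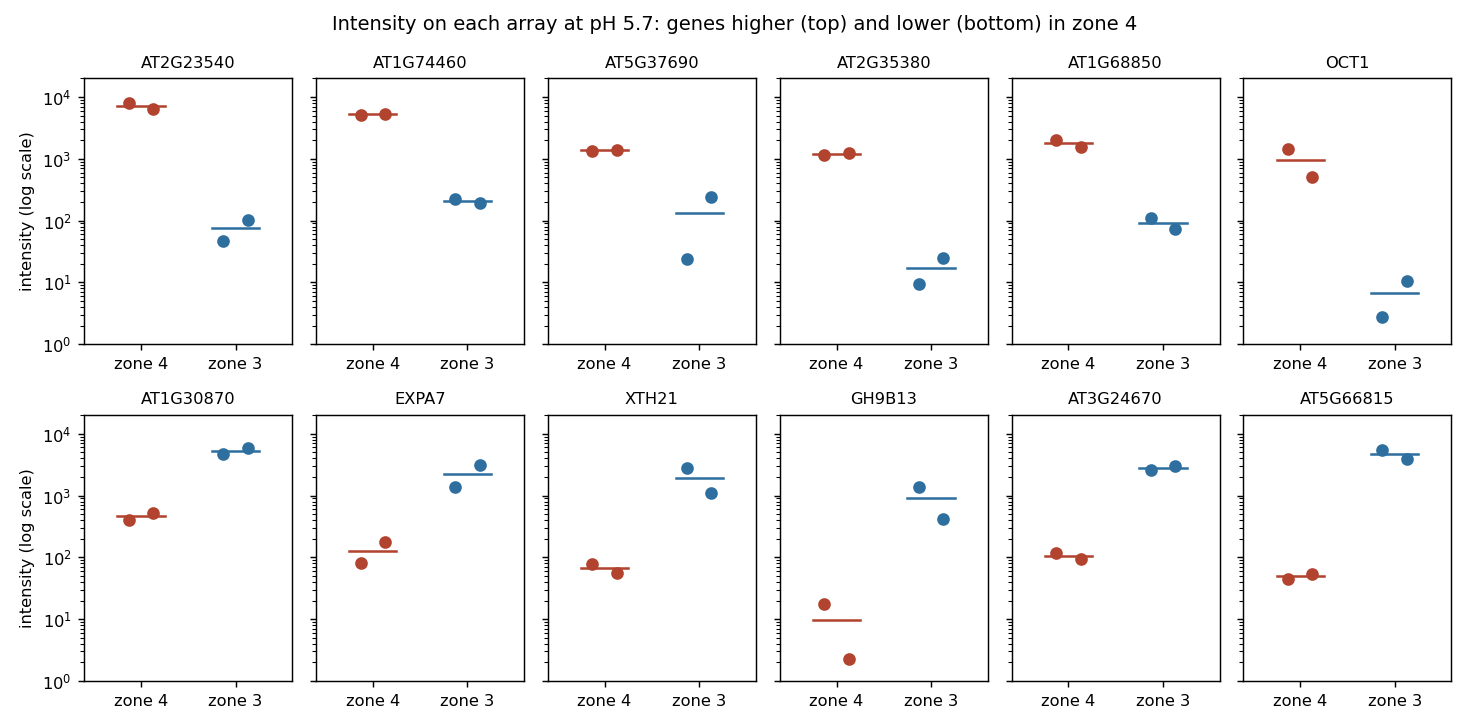
Intensity on each array at pH 5.7 (log axis) for 6 genes that rose in zone 4 (top: 3 GDSL-type lipases, 2 peroxidases and OCT1) and 6 genes that fell (bottom). Points are arrays and bars the mean of 2 arrays, with zone 4 in red and zone 3 in blue. The 2 zones do not overlap in any panel, as for AT2G23540 with 8146 and 6369 in zone 4, against 46.3 and 104 in zone 3. The genes were picked among those called, which favours this. Over all tested probe sets, both zone 4 arrays lay above both zone 3 arrays for 25.9% and below them for 23.9%.

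GDSL-type esterases and lipases, a large family of secreted enzymes that includes suberin synthases, held the largest rise of any named gene. Of 36 tested members 6 rose (16.7%) and 3 fell (8.33%), and the median difference was -0.59, against -0.01 over all tested probe sets. The list as written had 111 genes, of which 70 had a named probe set and 36 passed the filter on dim probe sets. AT2G23540 read 8146 and 6369 in zone 4, against 46.3 and 104 in zone 3. Both zone 4 arrays were bright and both zone 3 arrays dim, and the difference was 6.39 ± 0.42 (limma, adjusted p = 5.07e-07, n = 2 arrays per zone). In AT1G74460 the intensities were 5172 and 5364 in zone 4, against 224 and 195 in zone 3, with replicates close together in each zone, and the gene rose by 4.55 ± 0.49 (limma, adjusted p = 3.60e-05). AT5G37690 had 1337 and 1404 in zone 4, against 24.4 and 245 in zone 3. Its zone 3 replicates differed widely, yet both stayed below zone 4, and it rose by 3.76 ± 0.64, or by 5.10 without replicate 2 of zone 3.

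The other 3 GDSL-type rises were smaller, and 3 members fell. AT3G50400 read 1461 and 1208 in zone 4, against 275 and 316 in zone 3 and rose by 2.11 ± 0.51. Rises of 1.46 ± 0.44 and 1.13 ± 0.31 were found for AT4G26790 and AT1G28580. AT2G40250 went the other way, with 21.3 and 47.7 in zone 4, against 862 and 403 in zone 3, and fell by 3.64 ± 0.56. AT5G55050 (-3.06) and AT2G19050 (-1.93) also fell. With any 1 array left out, 3 to 5 members rose and 2 to 7 fell, and calls were lost for AT3G50400 without either zone 4 array (1.98 to 2.25), for AT4G26790 without zone 3 replicate 1 or either zone 4 array (0.75 to 1.48), for AT1G28580 without zone 3 replicate 2 or either zone 4 array (0.83 to 1.21) and for AT2G19050 without zone 3 replicate 1 or zone 4 replicate 2 (-1.40 to -1.29).

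Class III peroxidases, which cross-link wall polymers and polymerise lignin, moved in both directions, and more of them fell. Of 41 tested members 4 rose (9.76%) and 9 fell (22.0%), with a median difference of -0.74. AT2G35380 read 1175 and 1231 in zone 4, against 9.26 and 24.7 in zone 3. Its zone 3 arrays were near the bottom of the scale, and it rose by 5.25 ± 0.48 (limma, adjusted p = 9.83e-06). AT1G68850 was similar, with 2019.8 and 1558 in zone 4, against 112 and 73.1 in zone 3 and a rise of 4.07 ± 0.45. Smaller rises were those of AT5G14130 (2.32 ± 0.61) and AT5G64120 (1.53 ± 0.41), which RefSeq lists as peroxidase 71. Single omissions removed the call for AT5G14130 without zone 3 replicate 2 or either zone 4 array (2.20 to 2.43) and for AT5G64120 without zone 3 replicate 1 or either zone 4 array (0.90 to 1.55).

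Among the peroxidases that fell, AT5G17820 read 1669 and 1322 in zone 4, against 9232 and 9588 in zone 3, bright in both zones and well apart, and it fell by 2.65 ± 0.57. AT1G14550 had 87.1 and 73.0 in zone 4, against 599.7 and 609 in zone 3, tight replicates and a fall of 2.69 on the log2 scale. AT4G16270 (-2.85), AT4G11290 (-2.65) and AT2G39040 (-2.57) fell too. AT2G39040 read 1.21 and 2.78 in zone 4, against 269 and 24.0 in zone 3, so its zone 3 replicates differed more than replicate 2 of zone 3 differed from zone 4. The fits with 1 array left out lost calls for AT5G17820 without zone 4 replicate 2 (-2.48), for AT4G11290 without either zone 3 array or zone 4 replicate 1 (-3.28 to -1.83) and for AT2G39040 without zone 3 replicate 1 or either zone 4 array (-2.63 to -1.16). The count of falls was 5 to 9 with any 1 array left out and 3 without the high-plastid arrays, where AT1G14550 (-2.58), AT4G16270 (-3.02) and AT5G17820 (-2.46) were among those not called.

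All 5 tested root hair genes fell in zone 4, of 32 on the list as written. AT1G30870, a peroxidase gene of root hairs, read 405 and 516 in zone 4, against 4703 and 5908 in zone 3, and fell by 3.48 ± 0.65 (limma, adjusted p = 0.00312). The root hair expansin EXPA7 read 81.6 and 176 in zone 4, against 1394 and 3138 in zone 3 and fell by 3.95 ± 0.61, and EXPA18 read 159 and 364 in zone 4, against 1725 and 1793 in zone 3 and fell by 2.78 ± 0.61. In each of these genes both zone 4 arrays lay far below both zone 3 arrays, while still above the levels of zones 1 and 2. The peroxidase AT4G26010 (759.7 and 564 in zone 4, against 2363 and 2898 in zone 3) and SCN1 (886 and 925 in zone 4, against 1966 and 1484 in zone 3), a RhoGDI that confines hair outgrowth to 1 site per cell, fell less, by 1.97 and 0.90. Summed over the 5 genes, intensity came to 2291 and 2545 on the zone 4 arrays, against 12150.2 and 15221 on the zone 3 arrays. With any 1 array left out 2 to 4 of the 5 were called, with calls lost for EXPA18 without zone 4 replicate 1 (-2.22), for AT4G26010 without zone 3 replicate 2 or either zone 4 array (-2.18 to -1.76) and for SCN1 without zone 3 replicate 1 or either zone 4 array (-0.93 to -0.70). Without the high-plastid arrays 2 of the 5, EXPA7 and EXPA18, were called, and AT1G30870 was not, at -3.49 (limma, adjusted p = 0.0887). With a pseudocount of 1 in place of 16 the count was also 2.

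Expansins, xyloglucan enzymes, GH9 cellulases, extensins and trichome birefringence-like genes, which loosen or rebuild the wall, each had called falls and 0 called rises. Over all tested probe sets 6.63% were called higher, so 0 rises among 9 to 18 tested members is near that share. In all of these families but the extensins, some alternative fit gave a called rise. Expansins, which loosen walls without cutting polymers, had 6 falls among 15 tested members and a median of -1.07. Besides EXPA7 and EXPA18, EXPA8 read 19.5 and 10.8 in zone 4, against 468 and 57.7 in zone 3, with a difference of -2.61 ± 0.69. The expansin-like genes EXLA3 (43.2 and 173 in zone 4, against 1064 and 403 in zone 3) and EXLA2 (1.68 and 14.9 in zone 4, against 215 and 74.1 in zone 3) had differences of -2.67 ± 0.58 and -2.62 ± 0.61. EXPB1, of the beta class, fell by 2.30. The zone 3 replicates of EXPA8 were far apart. Calls were lost for EXPA8 without zone 3 replicate 1 or either zone 4 array (-2.82 to -1.26), for EXPA18 without zone 4 replicate 1 (-2.22), for EXLA3 without zone 4 replicate 1 (-1.83), for EXLA2 without zone 3 replicate 1 or zone 4 replicate 1 (-2.22 to -1.95) and for EXPB1 without zone 3 replicate 2 or either zone 4 array (-2.40 to -2.19). Across single omissions 1 to 5 expansins were called lower, the 1 being without replicate 1 of zone 4, and up to 2 were called higher, without replicate 2 of zone 3.

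Xyloglucan endotransglucosylase/hydrolases (XTH), which cut and rejoin xyloglucan, had 3 falls among 9 tested members and a median of -1.37. XTH21 read 78.5 and 56.1 in zone 4, against 2756 and 1106 in zone 3, with a difference of -4.42 ± 0.69. XTH19 had 23.3 and 47.5 in zone 4, against 1418 and 237 in zone 3, and XTH18 had 67.2 and 267 in zone 4, against 1764 and 645 in zone 3, with differences of -3.59 ± 0.68 and -2.82 ± 0.81. In all 3 the brighter zone 3 array was replicate 1, and both zone 3 arrays lay above both zone 4 arrays. The call was lost for XTH18 without zone 3 replicate 1 or zone 4 replicate 1 (-2.11 to -1.94). The GH9 cellulases GH9B13 and GH9C1 fell, among 11 tested members of their family. GH9B13 read 17.4 and 2.29 in zone 4, against 1385 and 420.0 in zone 3, a difference of -4.98 ± 0.46 (limma, adjusted p = 1.06e-05). GH9C1 gave 99.4 and 115 in zone 4, against 1594 and 1616 in zone 3, with nearly equal replicates, and fell by 3.72 ± 0.43.

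Extensins, structural glycoproteins that peroxidases cross-link, had 2 falls among 9 tested members, and all 9 differences were negative. HRGP1 read 511 and 944 in zone 4, against 1647 and 2764 in zone 3 (difference -1.60 ± 0.42) on a probe set that may cross-hybridise, and AT3G28550 read 168 and 178 in zone 4, against 561 and 566 in zone 3 (difference -1.62 ± 0.49). The test was no longer passed for HRGP1 without zone 3 replicate 2 or zone 4 replicate 1 (-1.23 to -1.16) and for AT3G28550 without any of the 4 arrays (-1.65 to -1.58). Neither gene was called without the high-plastid arrays (-1.66 and -1.65), nor when only the 4 arrays of the comparison were fitted. Trichome birefringence-like (TBL) genes, whose products acetylate wall polysaccharides, had 5 falls among 18 tested members and a median of -0.66. TBL21 was the largest, with 10.3 and 37.9 in zone 4, against 602 and 249 in zone 3 and a difference of -3.42 ± 0.56. TBL37 had 497 and 679.8 in zone 4, against 3155 and 2728 in zone 3, close replicates and a fall of 2.30, and TBL39 fell by 2.12. TBL19 and TBL28 had differences of -2.19 and -1.19. With 1 array left out these ran from -2.57 to -1.80 and from -1.40 to -0.98. When only the 4 arrays of the comparison were fitted, 3 TBL genes were called lower, and TBL19 and TBL28 were not called.

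Among pectin enzymes more falls than rises were called. Over all tested probe sets 6.63% were called higher and 5.32% lower, and the shares of rises in both pectin families were near the former. Of 14 tested pectate lyases, which cleave demethylated pectin, 4 fell (28.6%) and 1 rose (7.14%). AT3G24670 read 117 and 95.5 in zone 4, against 2598 and 2957 in zone 3. The zones were well separated with little spread, and the gene fell by 4.52 ± 0.28 (limma, adjusted p = 2.62e-07), the smallest adjusted p among the 30 ranked genes. AT3G07010 (16.7 and 37.0 in zone 4, against 564 and 422 in zone 3) had a difference of -3.60 ± 0.44. AT3G53190 was the pectate lyase that rose, with 141 and 333 in zone 4, against 78.7 and 20.2 in zone 3 and a difference of 2.00 ± 0.42. The call was lost for AT3G53190 without zone 3 replicate 2 or zone 4 replicate 2 (1.31 to 1.42). It was also lost without the high-plastid arrays (0.73) and when only the 4 arrays of the comparison were fitted.

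Pectin methylesterases, which remove methyl groups from pectin, had 7 falls (25.9%) and 2 rises (7.41%) among 27 tested members. AT3G10720 read 3.19 and 33.9 in zone 4, against 659 and 299.7 in zone 3 and AT2G47550 read 15.3 and 21.9 in zone 4, against 467 and 528 in zone 3, and each fell by 3.90. Both were brighter in zones 1 and 2, AT3G10720 at 4229 and 4150.2 in zone 1 and 5357 and 4312 in zone 2, and their zone 4 arrays were the lowest of all zones. AT5G04960 (132 and 173 in zone 4, against 905 and 1077 in zone 3) had its highest mean in zone 3, with a difference of -2.58 ± 0.63. ATPMEPCRB fell by 2.19 and AT1G02810 by 2.04. The 2 rises were AT5G20860 (165 and 116 in zone 4, against 22.9 and 6.55 in zone 3, difference 2.39 ± 0.46) and AT2G19150 (123 and 109 in zone 4, against 6.34 and 12.9 in zone 3, difference 2.37 ± 0.55). With 1 array left out, calls were lost for AT5G04960 without zone 3 replicate 2 or either zone 4 array (-2.76 to -2.40), for AT1G02810 without zone 4 replicate 1 (-1.69), for AT5G20860 without zone 4 replicate 1 (2.16) and for AT2G19150 without either zone 4 array (2.30 to 2.45). AT5G20860 (2.22), AT2G19150 (2.64) and AT5G04960 (-2.64) were not called without the high-plastid arrays. Neither of the 2 rises was called when only the 4 arrays of the comparison were fitted.

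Casparian strip genes were lower in zone 4 where they passed the test. Of 4 tested genes, of 15 on the list, 2 fell. GSO1, a receptor kinase that monitors the integrity of the strip, read 403 and 439 in zone 4, against 1597 and 1681 in zone 3, a difference of -1.92 ± 0.39 (limma, adjusted p = 0.00531). The dirigent-family gene AT2G39430 read 994 and 579.7 in zone 4, against 2831 and 5125 in zone 3, with a difference of -2.30 ± 0.59. Calls were lost for GSO1 without zone 4 replicate 1 (-1.86) and for AT2G39430 without zone 3 replicate 2 or either zone 4 array (-2.68 to -1.88). Neither gene was called without the high-plastid arrays (-1.94 and -1.50). AT4G13580, also of the dirigent family, had 6782 and 7825 in zone 4, against 14218 and 25113 in zone 3, and AT1G61590 had 686 and 542 in zone 4, against 999.6 and 1266 in zone 3. Their differences of -1.37 ± 0.72 and -0.87 ± 0.42 did not pass the test. Of 10 tested dirigent-family members 2 fell, AT2G39430 and AT4G11210 (70.0 and 83.4 in zone 4, against 1327 and 418 in zone 3, difference -3.05 ± 0.55).

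Lignin synthesis and secondary wall lists had 0 calls in limma among 3 tested members each, with 0 and 1 member at an unadjusted p under 0.05. Over all tested probe sets 12.0% were called, so 0 among 3 members is near that share. HCT, an acyltransferase of monolignol synthesis, read 5925 and 5473 in zone 4, against 5477 and 5637 in zone 3, a difference of 0.04 ± 0.31. IRX15, which takes part in xylan synthesis, read 157 and 152 in zone 4, against 59.9 and 83.1 in zone 3, and its difference of 0.98 ± 0.45 had an adjusted p of 0.168 in limma.

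**Figure D2:**
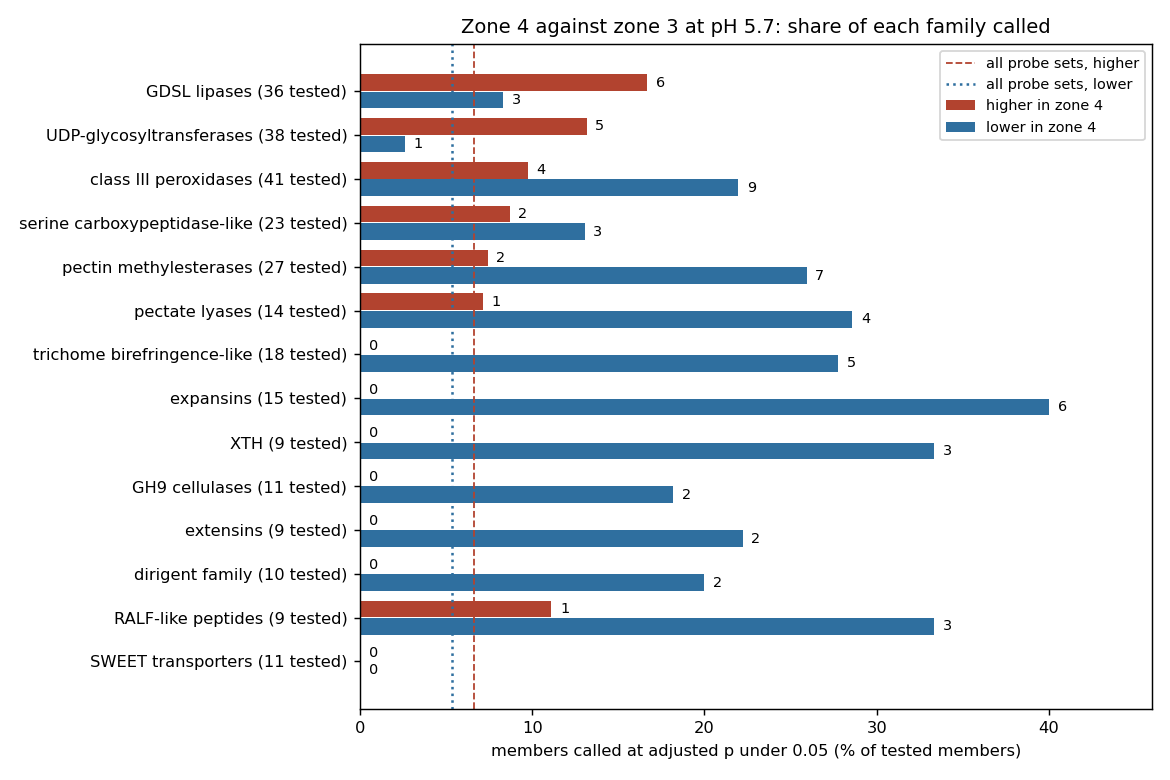
Share of tested members called higher (red) or lower (blue) in zone 4 against zone 3 at pH 5.7, in percent of the members tested, for 14 gene families. Numbers at the bars are counts of genes, and the dashed and dotted lines mark the shares over all tested probe sets, 6.63% higher and 5.32% lower. Expansins, XTH, GH9 cellulases, extensins, SWEET transporters, the dirigent family and trichome birefringence-like genes had 0 members called higher. With 9 to 18 tested members each, 0 is near the 6.63% over all tested probe sets.

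Outside these families the largest rises were mostly genes that the annotation names by locus code only, as it does for 14 of the 15. AT4G38080 read 8956 and 7303 in zone 4, against 139 and 136 in zone 3, with a difference of 5.72 ± 0.43. AT5G09480 had 3659 and 3401 in zone 4, against 34.7 and 86.4 in zone 3, and AT2G22510 had 806 and 635 in zone 4, against 2.79 and 5.75 in zone 3, with differences of 5.62 ± 0.41 and 5.18 ± 0.37. In each gene the arrays formed a bright zone 4 pair and a dim zone 3 pair. The ranking kept only genes whose arrays did not overlap, so this split was fixed by the choice of genes. The rest of the 15, AT2G47200, AT4G23670, AT1G49960, AT5G49350, AT2G03200, AT1G49470 and AT1G20030, rose by between 4.14 and 5.07. Over the 15 genes the intensities ran between 504 and 8956 in zone 4 and between 2.78 and 319 in zone 3.

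OCT1, an organic cation and carnitine transporter, was the 1 gene of the 15 with a name. It read 1418 and 504 in zone 4, against 2.78 and 10.5 in zone 3, a difference of 5.28 ± 0.51 (limma, adjusted p = 1.45e-05). Levels in the other zones were as low as in zone 3, at 2.55 and 1.71 in zone 1 and 3.74 and 3.13 in zone 2. Its relatives OCT4 (113 and 107 in zone 4, against 121 and 38.8 in zone 3) and OCT5 (1245 and 1075 in zone 4, against 1153 and 1853 in zone 3) had differences of 0.54 ± 0.44 and -0.33 ± 0.28, which did not pass. SWEET sugar transporters had 0 calls in limma among 11 tested members, also 0 at an unadjusted p under 0.05, with differences between -1.20 and 0.93. Over all tested probe sets 12.0% were called, so 0 among 11 members is not far from that share.

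Among enzymes that conjugate small molecules, calls went in both directions. Over all tested probe sets 6.63% were called higher and 5.32% lower. UDP-glycosyltransferases (UGT) had 5 rises (13.2%) and 1 fall (2.63%) among 38 tested members, and a median of 0.23. UGT72E1, which glucosylates lignin precursors, read 221 and 139 in zone 4, against 2.76 and 10.9 in zone 3, a difference of 3.09 ± 0.53 (limma, adjusted p = 0.0017). UGT88A1 had 358 and 326 in zone 4, against 45.7 and 122 in zone 3 and a difference of 1.96 ± 0.51. UGT76C2, which glucosylates cytokinins, read 359 and 238 in zone 4, against 90.4 and 90.8 in zone 3, a difference of 1.53 ± 0.37. UGT71C5, which glucosylates abscisic acid, read 767 and 714 in zone 4, against 481 and 194 in zone 3, a difference of 1.23 ± 0.38. UGT73C7 fell by 1.88. With any 1 array left out 1 to 6 UGT genes were called higher, with calls lost for UGT88A1 without zone 3 replicate 1 or either zone 4 array (1.38 to 2.02), for UGT76C2 without zone 4 replicate 1 (1.25), for UGT71C5 without zone 3 replicate 2 or either zone 4 array (0.60 to 1.28) and for UGT73C7 without zone 3 replicate 2 or zone 4 replicate 2 (-1.56 to -1.09).

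Glutathione transferases of the tau class, which detoxify electrophiles, gave 1 rise and 2 falls among 10 tested members. GSTU23 read 758 and 307 in zone 4, against 69.0 and 86.1 in zone 3, a difference of 2.42 ± 0.50, and GSTU28 read 49.8 and 41.5 in zone 4, against 420.4 and 769.7 in zone 3, a difference of -3.25 ± 0.44. Of 10 cytochromes P450 1 rose, CYP71B6 (1.15 ± 0.35). Of 23 serine carboxypeptidase-like genes 2 rose and 3 fell. Over all tested probe sets 6.63% were called higher and 5.32% lower, and the small counts in these 3 families are not far from those shares. SCPL49 read 1946 and 1309.7 in zone 4, against 551 and 399 in zone 3 and rose by 1.73 ± 0.31, and scpl40 (16.1 and 28.3 in zone 4, against 399 and 164 in zone 3) had a difference of -2.86 ± 0.56. The fits with 1 array left out lost calls for GSTU23 without zone 4 replicate 1 (1.79), for CYP71B6 without zone 3 replicate 2 or either zone 4 array (0.91 to 1.23) and for scpl40 without zone 4 replicate 1 (-2.63).

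Lectins and beta-glucosidases of the root rose where they were called. Of 3 tested jacalin-related lectins 2 rose. JAL33 read 3331 and 3388 in zone 4, against 267 and 203 in zone 3, with very small spread, a difference of 3.76 ± 0.28 (limma, adjusted p = 1.14e-06). It was also bright in zone 1, at 3240.2 and 2562, and dim in zone 2, at 110.5 and 107. JAL22 had 177 and 195 in zone 4, against 15.7 and 42.8 in zone 3 and a difference of 2.22 ± 0.47. Of 9 beta-glucosidases BGLU16 (1.54 ± 0.38) and PYK10 rose. PYK10, the main enzyme of endoplasmic reticulum bodies in roots, read 10641 and 9945 in zone 4, against 5632 and 4163 in zone 3, a difference of 1.08 ± 0.34. BGLU15 went the other way, with a difference of -1.11 that did not pass, and of -1.78 without replicate 2 of zone 3. In the fits with 1 array left out, calls were lost for JAL22 without either zone 4 array (2.16 to 2.29), for BGLU16 without zone 3 replicate 2 or zone 4 replicate 1 (1.03 to 1.06) and for PYK10 without zone 3 replicate 2 or either zone 4 array (0.87 to 1.13).

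Among signalling families, RALF-like peptides and calmodulin-like genes had 3 falls and 1 rise each. RALF-like peptides, some of which raise the pH outside the cell through the receptor FERONIA, had 9 tested members and a median of -1.72. RALFL22 read 721 and 1452 in zone 4, against 7453 and 5065 in zone 3, a difference of -2.57 ± 0.40 (limma, adjusted p = 0.000768). RALFL33 had 2389 and 4388 in zone 4, against 13042 and 8841 in zone 3 and RALFL24 had 155 and 154 in zone 4, against 482 and 703 in zone 3, with differences of -1.72 ± 0.48 and -1.81 ± 0.37. RALFL34 was the member that rose, with 499.9 and 414 in zone 4, against 185 and 213 in zone 3 and a difference of 1.13 ± 0.31. Of calmodulin-like calcium sensors 7 were tested. CML38 read 36.6 and 123 in zone 4, against 1051 and 389 in zone 3, CML42 163 and 351 in zone 4, against 745 and 1700.1 in zone 3, and their differences were -2.94 ± 0.74 and -2.15 ± 0.50. Calls were lost for RALFL33 without zone 3 replicate 1 or zone 4 replicate 1 (-1.44 to -1.29), for RALFL34 without any of the 4 arrays (1.00 to 1.26), for CML38 without zone 3 replicate 1 or zone 4 replicate 1 (-2.25 to -2.24) and for CML42 without zone 3 replicate 2 or zone 4 replicate 1 (-1.64 to -1.57). RALFL24 (-1.54), RALFL33 (-2.44) and RALFL34 (1.36) were not called without the high-plastid arrays.

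Among 5 WRKY factors, WRKY53, a regulator of defence and senescence, fell, with 206 and 445 in zone 4, against 1389 and 1674 in zone 3 and a difference of -2.27 ± 0.49. Of 5 subtilases the protease gene SBT3.5 rose, with 640.2 and 1109 in zone 4, against 88.2 and 155 in zone 3 and a difference of 2.68 ± 0.60. Tetraspanins, membrane proteins, had 2 falls among 11 tested members. These were TET9 (-2.46) and TET12 (-2.27). With 1 array left out, calls were lost for WRKY53 without zone 4 replicate 1 (-1.74), for SBT3.5 without zone 4 replicate 2 (2.30), for TET9 without any of the 4 arrays (-2.67 to -2.24) and for TET12 without zone 3 replicate 2 or either zone 4 array (-2.38 to -2.17).

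Genes of lateral root formation and auxin response were few on the tested list. LBD29, a transcription factor of lateral root initiation, read 38.8 and 137 in zone 4, against 7.38 and 4.60 in zone 3, a difference of 2.06 ± 0.57 (limma, adjusted p = 0.0277). It was at the bottom of the scale in zones 1 to 3. PUCHI (129 and 207 in zone 4, against 77.9 and 47.4 in zone 3) and LBD16 (248 and 268 in zone 4, against 217 and 325 in zone 3) had differences of 1.22 ± 0.46 and -0.04 ± 0.67 and did not pass. GH3.3, which conjugates auxin to amino acids and is induced by auxin, read 396 and 1162 in zone 4, against 49.7 and 163 in zone 3, a difference of 2.68 ± 0.65. IAA29 (0.51) and WES1 (0.10) did not pass. Single omissions removed the call for LBD29 without zone 3 replicate 2 or zone 4 replicate 2 (1.32 to 1.97) and for GH3.3 without zone 3 replicate 1 or zone 4 replicate 2 (1.93 to 1.96).

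Both tested genes of the low oxygen list rose, of 13 on the list. PDC2, a pyruvate decarboxylase of ethanol fermentation, read 1727 and 1782 in zone 4, against 274 and 231 in zone 3, and the lactate dehydrogenase gene AT4G17260 read 371 and 449 in zone 4, against 155 and 48.0 in zone 3. In both genes the zone 4 replicates were close and above both zone 3 arrays. Their differences were 2.73 ± 0.50 and 2.02 ± 0.40, and neither was called without the high-plastid arrays (2.59 and 1.18).

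Shoot and division markers did not pass the test. RCA, the rubisco activase, read 403 and 471 in zone 4, against 129 and 304 in zone 3, LHCB4.1 read 335 and 313 in zone 4, against 241 and 132 in zone 3, and PSBW read 430.3 and 1001 in zone 4, against 503 and 762 in zone 3. Summed over these 3 genes of photosynthesis, intensity came to 1169 and 1785 on the zone 4 arrays, against 872 and 1199 on the zone 3 arrays, without overlap for RCA and for LHCB4.1. Both of these, higher in zone 4, had an unadjusted p under 0.05 in limma (0.0405 and 0.0473). Of 4 tested cell cycle genes 0 were called in limma, and 0 had an unadjusted p under 0.05. Over all tested probe sets 12.0% were called, so 0 among 4 genes is near that share.

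Organelle-encoded genes had mostly negative differences, and replicate 2 of zone 3 was the array with the highest organelle signal. Of 69 plastid genes 67 had negative differences (median -1.21) and 3 fell, rps14, psbD and psaA. The gene psbD read 28.6 and 87.7 in zone 4, against 174 and 556 in zone 3, so the brightest array was replicate 2 of zone 3. Without replicate 2 of zone 3 the plastid list had 0 calls, and without replicate 1 of zone 3 it had 45. Of 14 mitochondrial genes all had negative differences (median -1.22) and 1 fell, nad5 (40.8 and 84.8 in zone 4, against 129.7 and 322 in zone 3, difference -1.55 ± 0.42). Its probe set may cross-hybridise, and the other nad5 probe set had a difference of -0.29. Calls were lost for rps14 without zone 3 replicate 2 or either zone 4 array (-2.60 to -1.29), for psbD without zone 3 replicate 2 or zone 4 replicate 1 (-1.67 to -1.48), for psaA without zone 3 replicate 2 or zone 4 replicate 1 (-1.27 to -1.15) and for nad5 without zone 3 replicate 2 or zone 4 replicate 1 (-1.14 to -0.95). Plastid intensity summed to 18873 and 39993 on the zone 4 arrays, against 23358 and 153101 on the zone 3 arrays.

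The largest falls among named genes lay mostly outside the families above. AT5G66815 read 44.4 and 54.6 in zone 4, against 5398 and 3956 in zone 3. The zone 3 arrays were bright and the zone 4 arrays dim, and the gene fell by 6.15 ± 0.70 (limma, adjusted p = 5.97e-05). AT2G47540 had 62.6 and 79.5 in zone 4, against 3497 and 3029.8 in zone 3 and fell by 5.24 ± 0.45. AT3G59370 read 49.3 and 32.3 in zone 4, against 2477 and 3419.9 in zone 3, a difference of -5.70 ± 0.91, and was the 1 ranked gene that lost its call in any setting, at -5.26 without the high-plastid arrays (limma, adjusted p = 0.0657). AT4G25250 had 6.58 and 2.69 in zone 4, against 1072 and 155 in zone 3, with zone 3 replicates far apart and zone 4 at the bottom of the scale. DRT100, named for DNA damage tolerance, read 24.7 and 25.5 in zone 4, against 1498 and 489 in zone 3, a difference of -4.41 ± 0.41, and was bright in zones 1 and 2 as well, at 1750.4 and 1319 and 3490.2 and 3618. The other ranked falls, AT4G31470, AT1G62480, AT3G43960, AT2G34910, AT2G14900, AT4G28085 and AT2G30930, lay between -5.34 and -4.07.

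Set along the whole root at pH 5.7, most genes that rose in zone 4 had their highest mean there, and most that fell had theirs in zone 3. Of the 1088 probe sets that rose, 736 (67.6%) had the highest of the 4 zone means in zone 4 and 301 (27.7%) in zone 1. Of the 873 that fell, 605 (69.3%) peaked in zone 3, 188 (21.5%) in zone 2 and 80 (9.16%) in zone 1. Over all tested probe sets 23.3% were highest in zone 4 and 26.7% in zone 3. These counts share the arrays that chose the calls and are a description. All 15 ranked rises were highest in zone 4. Of the 15 ranked falls 11 were highest in zone 3 and 4 in zone 2. AT2G47540 showed the pattern of a zone 3 peak, with 72.9 and 28.0 in zone 1, 63.7 and 85.8 in zone 2, 3497 and 3029.8 in zone 3 and 62.6 and 79.5 in zone 4.

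**Figure D3:**
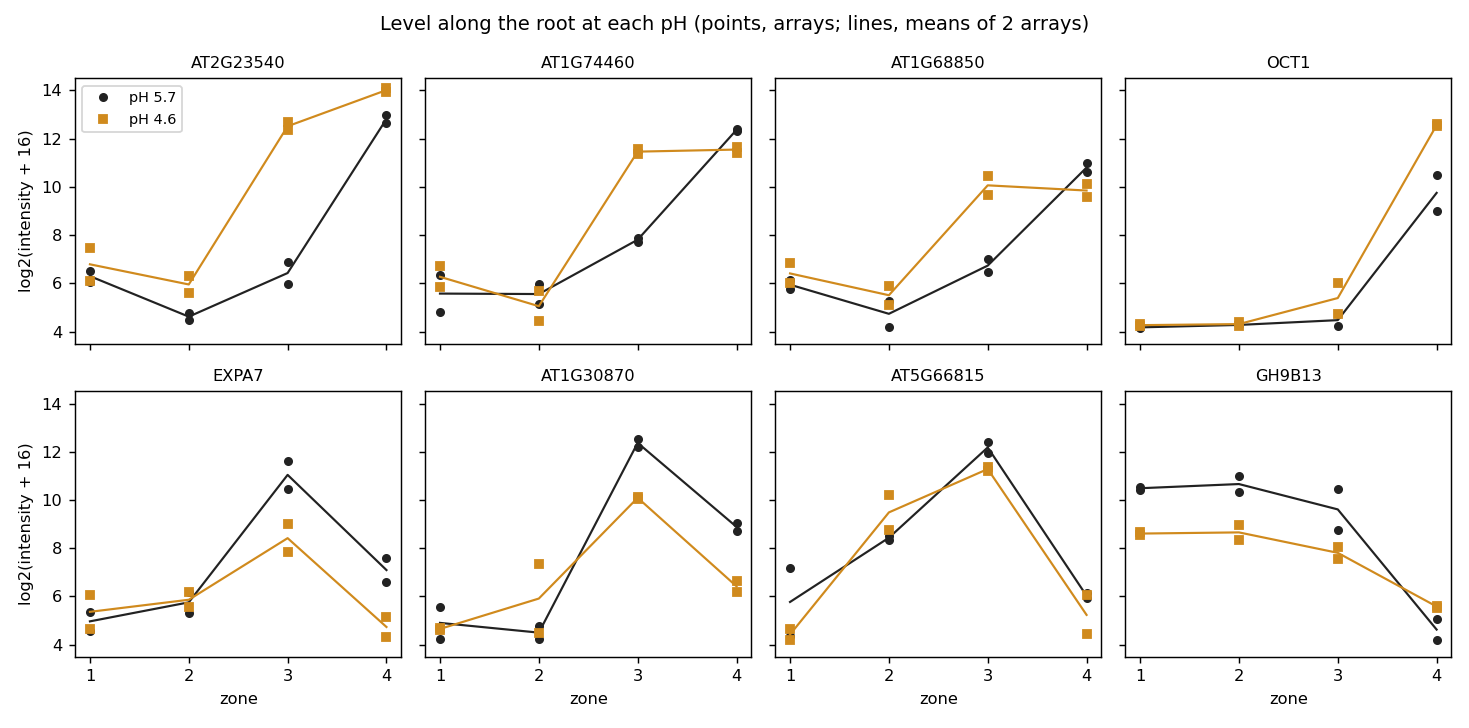
Level of 8 genes along zones 1 to 4, as log2(intensity + 16), at pH 5.7 (black circles) and pH 4.6 (orange squares). Points are arrays and lines join means of 2 arrays. At pH 5.7 the top 4 genes are highest in zone 4, and EXPA7, AT1G30870 and AT5G66815 are highest in zone 3. AT2G23540, AT1G74460 and AT1G68850 are already high in zone 3 at pH 4.6.

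The same zones were also sampled from roots moved to agar of pH 4.6 for the last 24 h, on 4 other arrays, which allows the zone step to be compared between pH values. There 687 probe sets were called (4.19%), of which 311 rose (1.90%) and 376 fell (2.29%). Of the 1088 rises at pH 5.7, 742 (68.2%) had a positive difference at pH 4.6, and 109 were called there too, 10.0% of the rises at pH 5.7 and 35.0% of those at pH 4.6. Of the 873 falls, 673 (77.1%) were negative at pH 4.6, and 189 were called too, 21.6% of the falls at pH 5.7 and 50.3% of those at pH 4.6. The median difference of the rises was 1.63 at pH 5.7 and 0.31 at pH 4.6, and that of the falls was -1.99 and -0.70. The genes were chosen by their call at pH 5.7, which favours a larger step there. Calls in the opposite direction at pH 4.6 numbered 8 among the rises and 5 among the falls. Across all 16405 probe sets the 2 steps correlated at r = 0.410, a description over features that share their arrays.

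The test of the difference itself, the step at pH 5.7 minus the step at pH 4.6, called 287 probe sets (1.75%), 179 positive (1.09%) and 108 negative (0.658%). It called 140 of the 1088 rises and 71 of the 873 falls. Among the 15 ranked rises it called 11, and among the 15 ranked falls 1, GH9B13. The ranking used the pH 5.7 step, which is 1 side of that test, so these counts are not independent of it. In AT2G23540 the intensities at pH 4.6 were 17538 and 15647 in zone 4, against 5215 and 6564 in zone 3. Zone 3 was thus already bright at pH 4.6, and the step there was 1.50 ± 0.42, a difference between the steps of 4.89 ± 0.60 (limma, adjusted p = 0.00117). AT1G74460 had 2736 and 3254 in zone 4, against 3023 and 2614 in zone 3 at pH 4.6, where the 2 zones overlapped, and its steps differed by 4.47 ± 0.70. The peroxidase AT1G68850 also overlapped there, with 753 and 1094 in zone 4, against 1393 and 802 in zone 3, and its steps differed by 4.28 ± 0.64. In 14 of the 15 ranked rises both zone 3 arrays at pH 4.6 were above both at pH 5.7. AT4G23670 was the exception, with 21.3 and 51.6 in zone 3 at pH 5.7. In 13 of the 15 ranked falls both zone 3 arrays at pH 4.6 were below both at pH 5.7. The ranking used these zone 3 arrays at pH 5.7, which favours both patterns. The share over all probe sets was not counted.

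**Figure D4:**
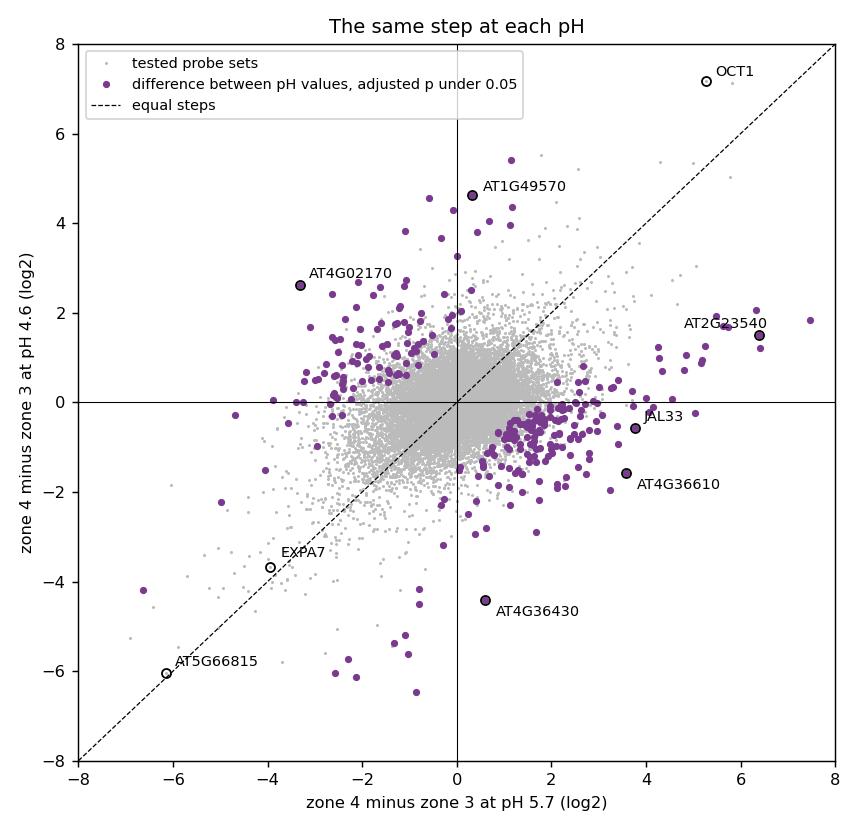
The zone step (zone 4 minus zone 3, log2) at pH 5.7 on the horizontal axis and at pH 4.6 on the vertical axis, 1 point per tested probe set. Purple points are the 287 probe sets whose steps differ between pH values at an adjusted p under 0.05, and the dashed line marks equal steps. EXPA7 and AT5G66815 lie near the line, OCT1 lies above it, and AT2G23540, JAL33 and AT4G36610 lie far to its right.

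Some rises were called at both pH values, as 6 of the 15 ranked rises were. OCT1 read 6235 and 5835 in zone 4, against 49.7 and 11.0 in zone 3 at pH 4.6, a step of 7.17 ± 0.51, and the difference between steps, -1.89 ± 0.72, did not pass. AT4G23670 had 622 and 861 in zone 4, against 2.45 and 2.44 in zone 3 at pH 4.6 and a step of 5.34 ± 0.59, with a difference of -0.35 ± 0.84. Of the 15 ranked falls, 12 were also called lower at pH 4.6. AT5G66815 had 50.2 and 5.48 in zone 4, against 2620.0 and 2341 in zone 3 at pH 4.6, a step of -6.05 ± 0.70. AT3G24670 had 87.1 and 57.9 in zone 4, against 1559 and 1435 in zone 3 there, a step of -4.11 ± 0.28. All 5 root hair genes fell at pH 4.6 too, EXPA7 with a step of -3.68 ± 0.61 and AT1G30870 with one of -3.67 ± 0.65, and the test of the difference called 0 of the 5 in limma, with differences between steps from -0.26 to 0.73.

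For some genes the steps at the 2 pH values had opposite signs. The largest positive difference was that of AT4G36610, with 2379.8 and 2300.2 in zone 4, against 259 and 125 in zone 3 at pH 5.7, and 193 and 461 in zone 4, against 1152 and 745 in zone 3 at pH 4.6. Its step was 3.58 ± 0.45 at pH 5.7 and -1.58 ± 0.45 at pH 4.6, where it did not pass, and the steps differed by 5.16 ± 0.63. The peroxidase AT4G36430 had 2620.1 and 2076 in zone 4, against 1271 and 1834 in zone 3 at pH 5.7, and 134 and 207 in zone 4, against 3744 and 3979 in zone 3 at pH 4.6. Zone 4 was above zone 3 at pH 5.7, by a step of 0.61 ± 0.38 that did not pass, and far below it at pH 4.6, and the steps differed by 5.01 ± 0.53 (limma, adjusted p = 0.000354). The GDSL-type gene AT3G50400 was called higher at pH 5.7 and lower at pH 4.6, where it read 626 and 1031 in zone 4, against 3351 and 2767 in zone 3. The call at pH 5.7 was lost for AT3G50400 without either zone 4 array (1.98 to 2.25).

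Negative differences were led by AT4G02170, with 23.6 and 142 in zone 4, against 797 and 743 in zone 3 at pH 5.7, and 821 and 449 in zone 4, against 36.8 and 179 in zone 3 at pH 4.6. The zone order was reversed between pH values, and the steps differed by -5.93 ± 0.95. The pectin methylesterase gene AT1G02810 also reversed, falling by 2.04 at pH 5.7 and rising by 1.63 at pH 4.6, where it read 3173 and 2679.6 in zone 4, against 951 and 915 in zone 3. GSTU28 had a step of -3.25 ± 0.44 at pH 5.7 and 0.01 ± 0.44 at pH 4.6, where it read 47.3 and 49.6 in zone 4, against 48.3 and 47.8 in zone 3. In RALFL22 the zones overlapped at pH 4.6, with 1569.8 and 1208 in zone 4, against 1014 and 1513 in zone 3, and a difference between steps of -2.72 ± 0.56. The calls at pH 5.7 were lost for AT4G02170 without zone 4 replicate 1 (-2.31) and for AT1G02810 without zone 4 replicate 1 (-1.69). Families with 2 or more calls in this test were peroxidases (7 of 41), GDSL-type genes (3 of 36), pectin methylesterases (2 of 27) and the dirigent family (2 of 10). Over all probe sets 1.75% were called. The test called 1 of 23 serine carboxypeptidase-like genes, 1 of 15 expansins, 1 of 11 GH9 cellulases and 1 of 9 RALF-like peptides. It called 0 of 69 plastid genes, 38 UGT genes, 18 TBL genes, 14 pectate lyases, 11 SWEET genes, 9 XTH genes and 9 extensins.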

How the data were processed

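Total RNA of root zones was amplified and hybridised to Affymetrix ATH1 arrays, per the labels' protocols. The authors deposited 1 linear intensity per probe set and array, made with MAS5 per the submitters' processing notes, and the mean of each array after trimming its extremes came out near the same value. Signal per probe pair was not used here, so the number of arrays limits the precision.

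Groups were taken from the sample titles, with 2 arrays in each of 8 groups. Of 22810 probe sets, 64 were controls. Probe sets were tested where the highest of the 4 zone means of log2(intensity + 16), each over both pH values, reached the 40th percentile of all zone means, which left 16405. A limma model (limma 3.58.1, R 4.3.3) with 1 mean per group was fitted to all 16 arrays, with an intensity trend in the variance. Its 8 residual and 7.44 prior degrees of freedom entered moderated tests of each zone step and of the difference between steps, adjusted by the Benjamini-Hochberg method. The scripts were tested on simulated data. Alternatives changed the pseudocount, filter, trend, normalization, block and arrays used.

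Of all probe sets 13513 had a single gene in the platform annotation, 503 had several and 8730 were unlisted, and 13436 were matched to RefSeq (TAIR10.1) for current symbols. The probe set with the highest mean over all arrays stood for a gene. Genes were named if they were among the 15 largest rises or falls with non-overlapping arrays, the largest called members of a family, the 6 largest differences between pH values in each direction, or root hair, Casparian strip or cell type markers. The gene lists and the comparison were chosen with earlier results of these data known. Lists by locus code, such as those of GDSL-type lipases, peroxidases and pectin enzymes, were written after the annotation or values had been seen.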

Additional observations from a re-analysis of the deposited data

Results flagged for a closer look

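The zone step differed between pH values, by the test of the difference itself, for 30 of the genes that could be named. Values here are the step at pH 5.7 minus the step at pH 4.6, in log2. All 30 passed the adjusted threshold in limma, and genes ranked by their pH 5.7 step were chosen with 1 side of this difference.

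Among the largest rises of zone 4 over zone 3 at pH 5.7, the step exceeded that at pH 4.6 by 4.89 in AT2G23540, 4.47 in AT1G74460, 4.28 in AT1G68850, 4.25 in AT1G20030 and 4.24 in AT2G22510. It did so by 4.04 in AT4G38080, 4.00 in AT2G35380, 3.91 in AT5G09480, 3.78 in AT1G49960, 3.28 in AT2G03200 and 3.01 in AT1G49470. The cellulase gene GH9B13, a large fall at both pH values, had a difference of -2.76.

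Among other members of the families, AT3G50400 (4.01), AT5G14130 (3.98), AT5G20860 (3.56) and scpl28 (2.82) were higher in zone 4 at pH 5.7 and had negative steps at pH 4.6. AT2G39430, a dirigent-family gene that fell at both pH values, had a difference of 3.43. AT1G02810 (-3.67), GSTU28 (-3.26) and RALFL22 (-2.72) fell at pH 5.7. At pH 4.6 AT1G02810 had a positive step of 1.63, while GSTU28 and RALFL22 had little step, at 0.01 and 0.15.

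The largest positive differences outside these groups were 5.16 in AT4G36610, 5.01 in AT4G36430, 4.57 in AT4G17280 and 4.33 in the lectin gene JAL33. The largest negative ones were -5.93 in AT4G02170, -5.15 in AT2G41730, -5.05 in AT1G55390, -4.92 in AT3G61930, -4.79 in AT5G28630 and -4.31 in the peroxidase gene AT1G49570. The probe set of AT2G41730 may cross-hybridise with other transcripts.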

How the results depend on the processing

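No gene that was called at pH 5.7 and open to naming changed sign in its pH 5.7 step under the alternatives run. Some genes described above that did not pass there changed sign in at least 1 of the alternatives. These were AT1G49570, AT2G41730, AUR1, HCT, IAA29, LBD16, OCT4, OCT5, PSBW and WES1. The count of 1961 probe sets called at pH 5.7 (1088 higher, 873 lower) became 568 (259 higher, 309 lower) when only its 4 arrays were fitted, which leaves fewer residual degrees of freedom, and 898 (433 higher, 465 lower) without the high-plastid arrays. With 1 array left out it ran between 629 and 3541 (higher 325 to 1875, lower 304 to 1666), the lowest without replicate 1 of zone 4 and the highest without replicate 1 of zone 3. At pH 4.6 the count of 687 became 1246 with only its arrays and 430 without the high-plastid arrays, and 191 to 258 with 1 array left out. The count of 287 differences between pH values became 174 with arrays centred on their median, 180 without the trend, 160 with a pseudocount of 1, 516 with a pseudocount of 64, 94 without the high-plastid arrays, and 37 to 1251 with 1 array left out. The causes of these shifts were not tested. Centring arrays on their median moved the median difference of all probe sets to 0.20 and gave 64.7% of calls higher, against 55.5% without it. Replicate numbers are shared by the groups, but deviations of same-numbered arrays correlated at 0.309 at pH 5.7 and -0.187 at pH 4.6, and no label ties a number to a shared batch, so the numbers were not taken to pair the samples, although all 4 high-plastid arrays are a replicate 2. With the replicate number as a block 2103 probe sets were called at pH 5.7 (1145 higher, 958 lower), 712 at pH 4.6 and 318 for the difference. The block gave 9 falls on the plastid list and 4 on the mitochondrial list, against 3 and 1 without it, and no gene open to naming lost its call at pH 5.7. With 2 arrays per zone, the lone array left in a zone was assumed to vary like the other groups.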
